A study of Mus musculus with 6 samples.

Results

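The aryl hydrocarbon receptor (AHR) and 6 genes tied to it were followed in sorted peritoneal cavity (PC) B1a cells, the self-renewing CD5+ B cells of the body cavities. The 7 genes were Ahr itself, Arnt, Ahrr, Cyp1a1, Cyp1b1, Tiparp and Nqo1. They were chosen by name as the receptor, its partner, its repressor and 4 genes it is known to induce. The array carried 11 probes for them, of 55681 probes in all, and 7 of the 36163 gene names it used. Every probe was read on its own, because probes of 1 gene lie in different places and need not move together.

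RNA was hybridised to 6 one-colour Agilent arrays, 3 from 7-week-old female p40-/- CD25-/- mice and 3 from p40-/- CD25+/- littermates, all on the C57Bl/6 background. The first genotype is the knockout group, p40-/-IL-2Rα-/-, and the second is the control group, p40-/-IL-2Rα+/-. Both groups lack p40, the subunit that IL-12 and IL-23 share, and the controls keep 1 working copy of IL-2Rα, so no wild-type sample entered the comparison. Each array carries RNA pooled from at least 3 mice, and the deletion is present in every cell of the knockout animals, not only in B cells.

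AHR is a ligand-activated transcription factor of the bHLH-PAS family. It rests in the cytosol with HSP90 and its co-chaperones, moves to the nucleus when it binds dioxins, tryptophan products or dietary indoles, pairs with ARNT and binds DNA at sites with the core GCGTG. Its targets include the detoxifying enzymes Cyp1a1, Cyp1b1 and Nqo1 and its own inhibitors Ahrr and Tiparp. In lymphocytes it is known for its part in cytokine production, and B cells have been shown to carry it.

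A probe was called by the 2-fold rule where it changed at least 2-fold with an unadjusted p of at most 0.05. These are the study's thresholds for the array as a whole, and for genes of B cell function, Ahr among them, its text used a lower fold. The study reported Ahr as up-regulated on the array and by quantitative PCR. In the main fit, a lower fold at this p would call the same member probe alone. The study's text gives no p with its lower fold. Without a p, the brighter Arnt and Tiparp probes, 1.34-fold and 1.36-fold lower, would pass that fold too. With the replicate number as a block, both also came under this p. Of the member genes, Ahr alone had a probe that passed the 2-fold rule, and 1 of its 2 probes did. On the scale used throughout, log2 processed signal minus the 75th percentile of the same array, the dimmer Ahr probe was 1.75 ± 0.32 (SE, n = 3 per group) higher in knockout PC B1a cells, a 3.35-fold difference. This probe lay close to the detection limit, its unscaled log2 difference was 0.52, and normexp correction with quantile normalization gave 0.49, under 2-fold. The brighter Ahr probe differed by 0.22 ± 0.19. Arnt and Tiparp were read clearly on every array, and none of their 4 probes passed a threshold. Ahrr, Cyp1a1, Cyp1b1 and Nqo1 were not well above background on any array of either genotype.

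The 11 probes are 60 bases long, and what each one reads is given here by its first 30 bases because the results turn on which probe is read. Positions are those of the array files on mm9, and every accession matched the named gene in RefSeq. The paired probes of a gene lie 5799 bases apart in Ahr, 2119 in Ahrr, 1647 in Arnt and 1039 in Tiparp, counted between their starts.

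Ahr, brighter probe, chr12:36182724-36182783 (-): ccttgctgtcctttaaactgttacttgctt

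Ahr, dimmer probe, chr12:36188523-36188582 (-): ttagattttgtcagttgtttacaagttcct

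Arnt, brighter probe, chr3:95301081-95301140 (+): ccatctgtgctaagccttaactgtggcaaa

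Arnt, dimmer probe, chr3:95299434-95299493 (+): tttccaccccttgacttgctgaagaaacgt

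Tiparp, brighter probe, chr3:65358749-65358808 (+): tagagctgtacagatgtctcagtgaatcag

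Tiparp, dimmer probe, chr3:65357710-65357769 (+): gtggaaaagactaaagtgcatattcttcat

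Ahrr, brighter probe, chr13:74350685-74350744 (-): actttgcataatgatagtcatggaaacacc

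Ahrr, dimmer probe, chr13:74348566-74348612 (-): ggaataaatacaagtgcccttatatttgca

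Cyp1a1, chr9:57551535-57551594 (+): gataatttgctagtgtaacaaagaagattc

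Cyp1b1, chr17:80106547-80106606 (-): actacattaagcagatagatcaccatgtat

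Nqo1, chr8:109912440-109912499 (-): taggtcatttatgcaatattcgccattttc

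Ahr and Ahrr lie on the minus strand, so the Ahr probe with the lower coordinate, the brighter one, reads the transcript further towards its 3′ end. The exon or UTR that each probe falls in was not looked up, because no annotation of mm9 was used here. The position listed for the dimmer Ahrr probe spans 47 bases, fewer than the probe holds. GC content ran from 25% for Cyp1a1 to 43.3% for Nqo1 and the brighter Tiparp probe, and both Ahr probes had 35%.

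The arrays differed in brightness. The 75th percentile of the processed signal was 264, 252 and 272 in the controls and 131, 66.5 and 162 in the knockouts, a log2 difference of -1.23 between the groups. The scanner software marked 47.2% to 50.6% of spots as well above background in the controls and 39.7% to 45.9% in the knockouts. No spot was saturated. Because brightness moved with genotype, each value is given below on the scaled axis and, for the genes the results turn on, also as unscaled signal. All 6 arrays were on 1 slide, and whether brightness played a part in any result was not tested. In bulk RNA, fewer cells that carry a transcript and less of it per cell cannot be told apart.

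Il2ra, the gene deleted in the knockout group, read 1.62, 1.13 and 1.35 in the controls and -0.31, -0.59 and 0.86 in the knockouts. The groups did not overlap, and its difference of -1.38 ± 0.37 (SE) passed the 2-fold rule but not the adjusted threshold (limma, adjusted p = 0.119). It stayed well above background on all 6 arrays. Whether the probe lies in the deleted part was not examined, so it is a limited check of the labels. Il12b, which encodes the p40 lacking in both groups, differed by -0.02 (adjusted p = 0.957). All 6 arrays marked its probe as well above background although both groups are labelled p40-/-, and whether it lies in the deleted part was not examined either.

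The brighter Ahr probe read 1.52, 1.29 and 1.14 in the controls and 1.83, 1.29 and 1.48 in the knockouts. The groups overlapped, knockout 2 lying among the controls. The difference was 0.22 with a 95% interval from -0.24 to 0.67 (limma, unadjusted p = 0.296, adjusted p = 0.476). Unscaled, this probe gave signals of 756, 615 and 599 in the controls and 466, 162 and 452 in the knockouts, so that before scaling every knockout array was dimmer.

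The dimmer Ahr probe read -4.22, -3.67 and -3.85 in the controls and -1.99, -1.64 and -2.87 in the knockouts. All 3 knockout arrays lay above all 3 control arrays. The difference of 1.75 had a 95% interval from 0.99 to 2.50, with an unadjusted p of 0.000869 and an adjusted p of 0.0890 over 24754 tested probes (limma). It met the 2-fold rule and missed an adjusted p of 0.05.

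Its unscaled signals were 14.1, 19.8 and 18.8 in the controls and 32.8, 21.4 and 22.1 in the knockouts. The groups did not overlap on this scale either, although knockout 2 at 21.4 lay just above control 2 at 19.8, and the unscaled log2 difference was 0.52. The lowest signal marked well above background on each array ran from 11.3 to 17.3, so this probe sat close to the limit of detection in both groups, while being marked well above it on all 6 arrays.

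**Figure D1:**
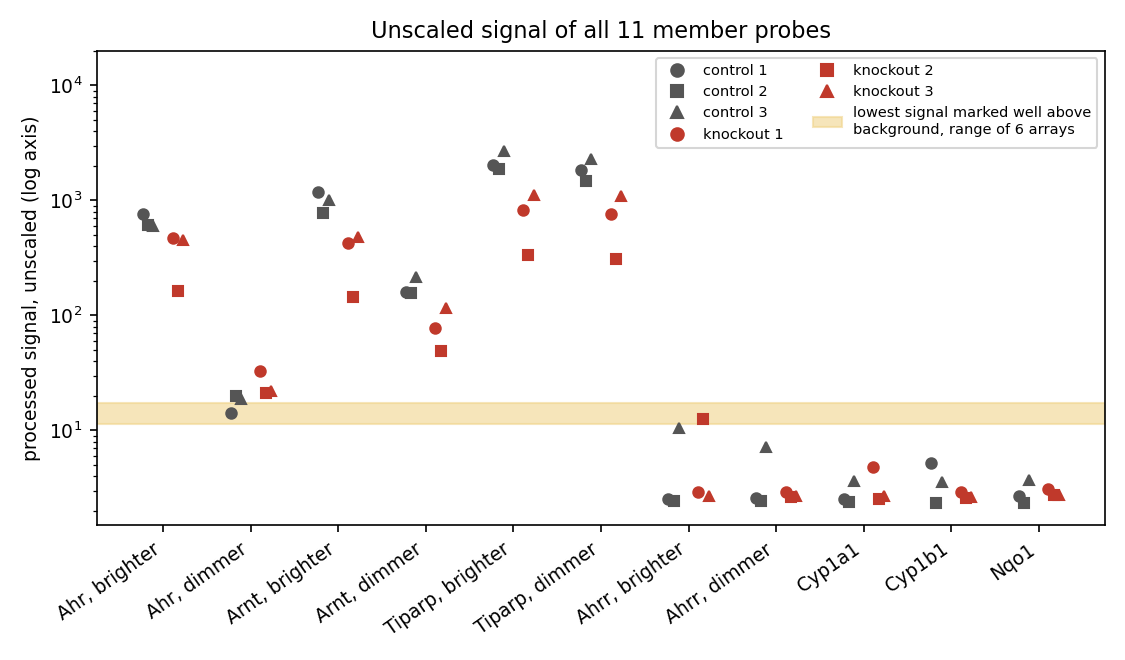
Processed signal before scaling, on a log axis, for each of the 11 member probes; points are arrays, grey for control and red for knockout, and the band spans the lowest signals marked well above background, 11.3 to 17.3. The dimmer Ahr probe lies just at and above the band, and the 5 probes of Ahrr, Cyp1a1, Cyp1b1 and Nqo1 lie under or within it.

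Probes as dim as this one tended to be higher in the knockouts after scaling. Among the 499 other probes well above background on all 6 arrays whose mean lay within 0.5 of its mean of -3.04, the median difference was 0.63, 95.8% were positive and 16.0% passed the 2-fold rule as higher. The difference of the dimmer Ahr probe was matched or exceeded by 3 of the 499. This comparison was chosen after its value was seen and is a description with no test. At the level of the brighter Ahr probe, 2669 probes had a median difference of -0.18, and 16.4% had a difference at least as high as 0.22.

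Within an array, the dimmer minus the brighter Ahr probe was -5.74, -4.96 and -5.00 in the controls and -3.83, -2.92 and -4.36 in the knockouts, on the log2 scale. The gap was narrower by 1.53 in the knockouts and the groups did not overlap. No scaling enters this value, which shows unequal change of 2 probes of 1 gene and no ratio of transcript levels. Of 3671 genes with 2 or more probes well above background on all 6 arrays, 13 (0.354%) had a dimmest probe that moved up against the brightest by as much, and the median such shift was 0.07. That median covers genes at all levels, whereas probes at the levels of the dimmer and the brighter Ahr probe had median differences of 0.63 and -0.18, which are 0.80 apart. With both Ahr probes averaged into 1 value per gene, the difference was 0.98 with an adjusted p of 0.0946.

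**Figure D2:**
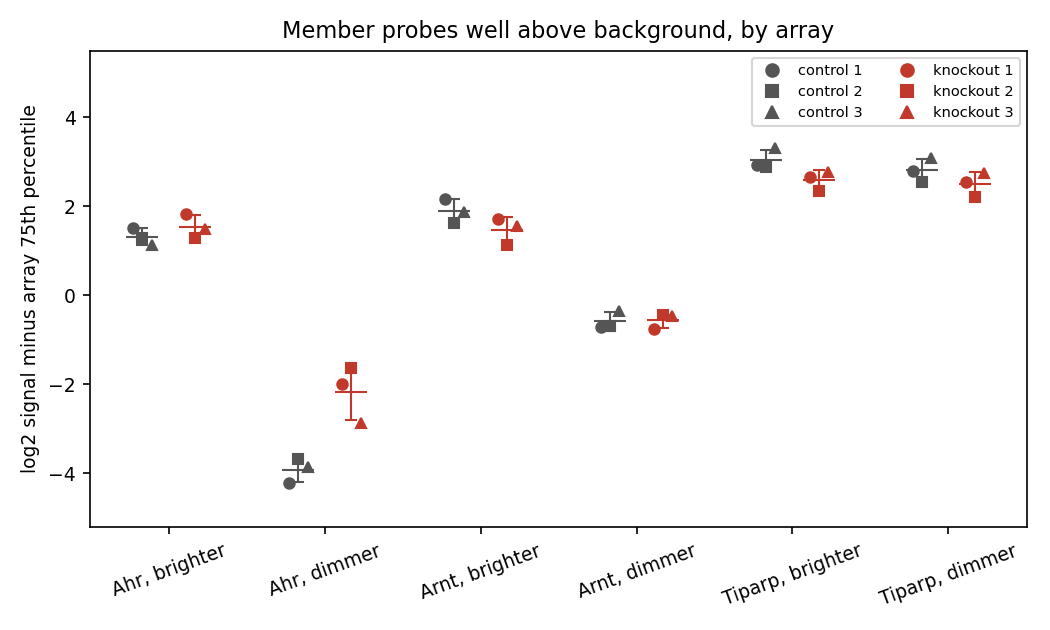
Log2 processed signal minus the 75th percentile of the array for the 6 member probes that were tested; each point is 1 array, bars are the mean and SD of 3 arrays. The dimmer Ahr probe is the one whose knockout points, -2.87 to -1.64, stand clear above its control points, -4.22 to -3.67.

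Arnt encodes the partner with which AHR binds DNA and which hypoxia-inducible factors also use. Its brighter probe read 2.16, 1.62 and 1.88 in the controls and 1.71, 1.12 and 1.56 in the knockouts. The groups overlapped, although within each replicate number the knockout was lower, by -0.45, -0.50 and -0.33, and the difference was -0.42 with a 95% interval from -0.93 to 0.08 (limma, adjusted p = 0.259). Its dimmer probe read -0.71, -0.70 and -0.35 in the controls and -0.75, -0.44 and -0.46 in the knockouts. The values interleaved, and the difference of 0.03 had an interval from -0.37 to 0.44 (adjusted p = 0.910). At the level of the brighter Arnt probe, 2596 probes had a median difference of -0.19, and 15.7% had one at least as low.

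Tiparp encodes an ADP-ribosyltransferase that is induced by AHR and limits it, and it was the only one of the inducible members with a level that could be measured. The brighter Tiparp probe read 2.93, 2.88 and 3.31 in the controls and 2.67, 2.34 and 2.78 in the knockouts. All 3 knockout arrays lay below all 3 controls, by a difference of -0.45 with an interval from -0.90 to 0.00 (limma, unadjusted p = 0.0514, adjusted p = 0.206). The dimmer Tiparp probe read 2.79, 2.56 and 3.08 against 2.55, 2.21 and 2.75. Here the groups overlapped, and the difference was -0.31 (interval -0.79 to 0.18, adjusted p = 0.364). Within replicate numbers, knockout minus control was -0.24, -0.35 and -0.33 for this probe and -0.27, -0.54 and -0.53 for the brighter one, and 56.9% of all tested probes with 3 complete pairs had 1 sign in all 3. Neither probe passed a threshold, and a change of 2-fold in either direction lay outside both intervals. At the level of the brighter Tiparp probe, 2283 probes had a median difference of -0.24, and 14.5% had one at least as low. At the level of the dimmer one, 2357 probes had a median of -0.23, and 36.7% were at least as low.

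Unscaled, the brighter Tiparp probe gave 2012, 1860 and 2704 in the controls and 830.5, 336 and 1114 in the knockouts, and the brighter Arnt probe gave 1178, 776 and 1004 against 429, 145 and 476. Their unscaled log2 differences were -1.67 and -1.65, while that of the brighter Ahr probe was -1.01 and that of the arrays' 75th percentile was -1.23. Relative to the brighter Ahr probe on the same array, brighter Tiparp shifted by -0.67 and brighter Arnt by -0.64 between controls and knockouts, in both cases with no overlap of the groups. These shifts share the same Ahr values, are 2 of 6 such differences that were computed after the values were seen, and carry no test. Tiparp against Arnt shifted by -0.02, with overlapping groups.

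**Figure D3:**
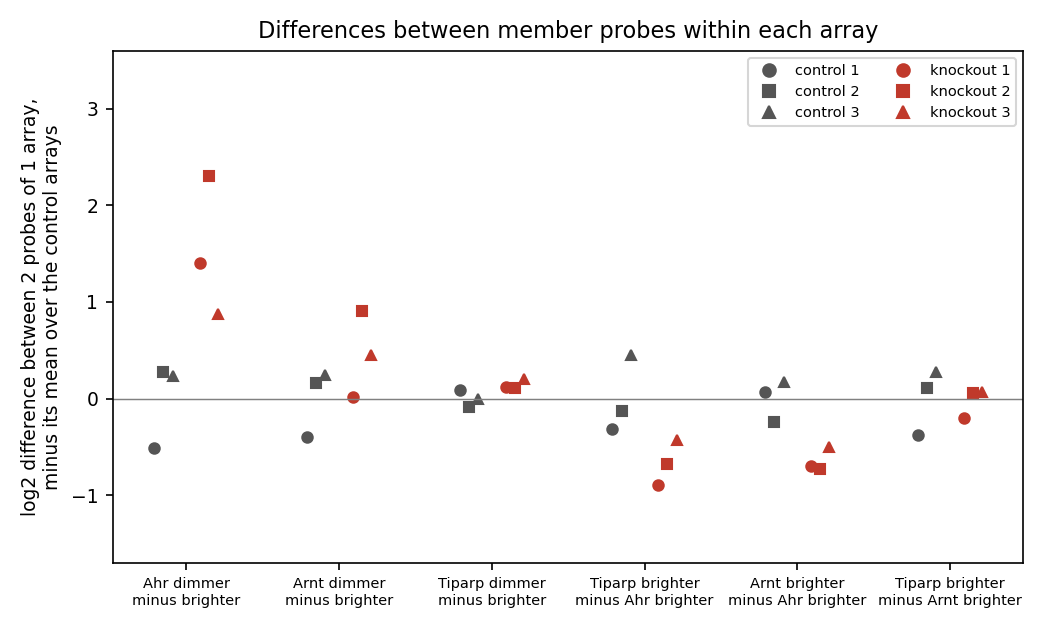
Log2 difference between 2 member probes on the same array, minus the mean of that difference over the control arrays, for 6 probe pairs; points are arrays. The gap between the Ahr probes moved by 1.53 in the knockouts, and the gaps between Tiparp or Arnt and the brighter Ahr probe moved by -0.67 and -0.64.

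Of the 6 tested member probes, 1 passed the 2-fold rule, against 3.63% of all tested probes in either direction and 2.38% as higher in the knockouts. At an adjusted p under 0.05, 0 of 6 passed in limma, against 0.0808% of all probes. At an unadjusted p under 0.05, 1 of 6 passed, against a background of 24.5%. With the replicate number as a block, 3 of 6 did, against 27.4% of all probes, the brighter Arnt probe at an unadjusted p of 0.0233 and the brighter Tiparp probe at 0.0245 being added (limma, adjusted p = 0.147 and 0.148). The groups did not overlap for 2 of the 6, the dimmer Ahr and the brighter Tiparp probe, against 35.2% of all tested probes, so that lack of overlap alone was common on these arrays. The methods' t-test also put the dimmer Ahr probe alone past the 2-fold rule and none past an adjusted p of 0.05.

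Across 18 other ways of processing, the dimmer Ahr probe stayed higher in the knockouts each time, by 0.49 to 2.10. It passed an adjusted p of 0.05 in 4 of them, with values of 0.00329 after normexp background correction and 75th percentile scaling, 0.0318 with trend and robust estimation, 0.0409 with array weights and 0.0436 without knockout replicate 3. Of all tested probes, 37.7%, 3.96%, 2.78% and 0.548% passed in those settings in the same order, against 0.0808% in the main one. The highest adjusted p was 0.281, without control replicate 3. Without knockout replicate 2, the dimmest array, the difference was 1.48 with an adjusted p of 0.112, and after normexp correction with quantile normalization it was 0.49, under 2-fold. The brighter Ahr probe ran from 0.01 to 0.41 over the same settings, with no adjusted p under 0.05. Changing only the probe filter, the outlier spots, the test or its replicate block left both differences as in the main setting. Those settings could not turn a direction.

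**Figure D4:**
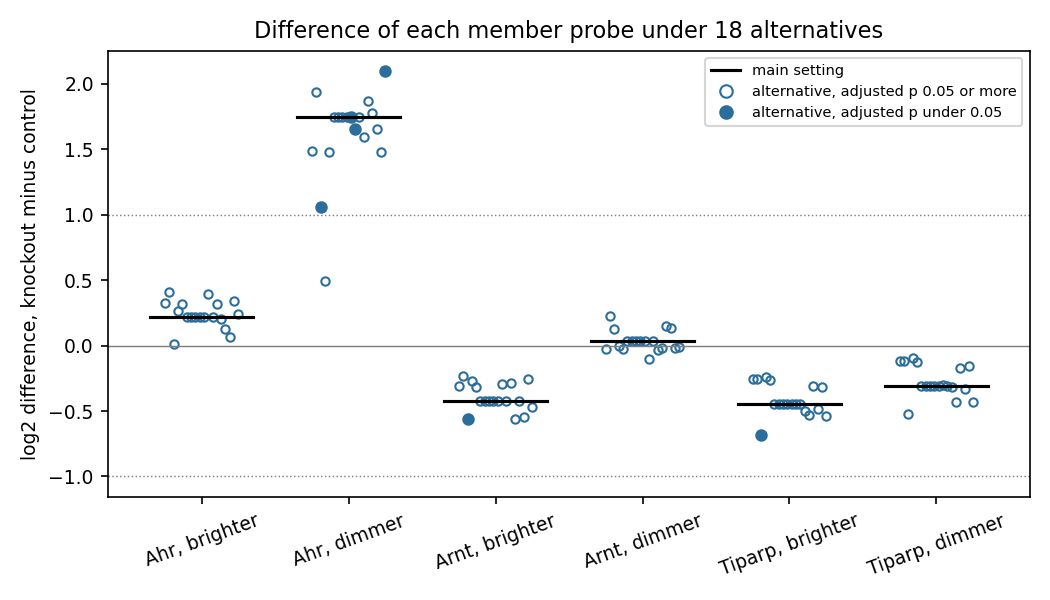
Log2 difference of each tested member probe, knockout minus control, under 18 processing alternatives; black bars are the main setting, filled points have an adjusted p under 0.05, and dotted lines mark 2-fold. Points of the dimmer Ahr probe run from 0.49 to 2.10, and all points of the other 5 probes lie within 2-fold.

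The remaining members gave no level that could be compared. Cyp1a1, the enzyme most often used to read AHR activity, gave signals of 2.5, 2.4 and 3.6 in the controls and 4.9, 2.6 and 2.7 in the knockouts. Cyp1b1, a related monooxygenase, gave 5.2, 2.4 and 3.5 against 2.9, 2.6 and 2.6. Nqo1, a quinone reductase that NRF2 also induces, gave 2.7, 2.3 and 3.7 against 3.1, 2.7 and 2.7. None of these readings was well above background.

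Ahrr encodes the repressor that competes with AHR for ARNT. Its brighter probe gave 2.5, 2.4 and 10.6 in the controls and 2.9, 12.5 and 2.7 in the knockouts, and its dimmer probe gave 2.6, 2.4 and 7.1 against 2.9, 2.6 and 2.7. Control 3 and knockout 2 were high for the brighter probe, 1 array of each genotype. By the scanner software's weaker mark, positive and significant against local background, the brighter Ahrr probe was marked on those 2 arrays, and the dimmer Ahrr, Cyp1a1, Cyp1b1 and Nqo1 probes on 1 array each.

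Of the 11 member probes, 5 (45.5%) were well above background on no array, close to the 44.7% of all probes. The other 6 (54.5%) were so on all 6 arrays, against 37.1% of all probes. These 5 probes give an upper bound to the signal and say nothing of a difference between genotypes. With the filter on dim probes removed, all 5 came out higher on the scaled axis, Cyp1a1 and the brighter Ahrr probe by 1.43, Nqo1 by 1.22, and the dimmer Ahrr probe and Cyp1b1 by 0.86. Of these, Cyp1a1 and Nqo1 passed the 2-fold rule, and their unscaled log2 differences were 0.20 and -0.01. The median of all 55681 probes was then 0.55 higher.

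The known binding core of AHR was looked up in the promoters as a description of the members, since the inducible ones fell on both sides of the detection limit. Promoters were taken from RefSeq on GRCm38.p6 for 6 of the 7 members, as 300-base windows from 250 bases before to 50 after the gene's start. GCGTG on either strand occurred 3 times in the Ahrr window, 1 time each in those of Tiparp, Arnt, Cyp1a1 and Cyp1b1, and 0 times in that of Nqo1. The same core was found in 32.4% of 32851 promoters of this length. The longer TNGCGTG, which contains the core, was found 1 time, in Ahrr, and in 5.07% of all promoters. A match is a run of letters, not a bound site. The 250 bases upstream are shown for Tiparp, the inducible member with a measured level, and for Cyp1a1 and Ahrr, without one. Capitals mark GCGTG or its reverse complement CACGC, each sequence 5′ to 3′ on the gene's strand.

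Tiparp, chr3:65528197-65528446 (+): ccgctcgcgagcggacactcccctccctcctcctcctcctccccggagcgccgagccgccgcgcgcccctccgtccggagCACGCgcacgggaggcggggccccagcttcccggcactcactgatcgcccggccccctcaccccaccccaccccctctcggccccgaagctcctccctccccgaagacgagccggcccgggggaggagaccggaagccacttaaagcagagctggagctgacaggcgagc

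Cyp1a1, chr9:57697363-57697612 (+): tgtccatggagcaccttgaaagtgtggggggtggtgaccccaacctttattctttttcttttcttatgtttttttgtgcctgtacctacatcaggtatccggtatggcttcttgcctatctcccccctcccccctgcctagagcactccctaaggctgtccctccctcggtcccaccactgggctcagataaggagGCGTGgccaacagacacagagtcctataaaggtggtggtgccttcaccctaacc

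Ahrr, chr13:74292332-74292581 (-): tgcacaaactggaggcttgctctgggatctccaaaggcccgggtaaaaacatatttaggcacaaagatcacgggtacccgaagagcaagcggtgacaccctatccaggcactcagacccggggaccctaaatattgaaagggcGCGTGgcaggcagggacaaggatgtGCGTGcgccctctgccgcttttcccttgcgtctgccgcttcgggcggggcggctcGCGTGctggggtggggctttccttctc

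Counted from the gene's start, the core began at -170 in Tiparp and -54 in Cyp1a1, and at -107, -82 and -27 in Ahrr. The core stood in the promoters of Tiparp and Arnt, which had a measured level, and of Cyp1a1, Cyp1b1 and Ahrr, which had none. Signals of different probes are not comparable, and a link between core and level was not tested.

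Genes around the receptor were grouped into 8 lists of 91 genes, each gene read through the brightest of its tested probes. The array named 90 of them, 64 were tested, and 17 were well above background on no array. Of the 64 tested genes, 0 passed the 2-fold rule in either direction, against 2.26% of all tested genes as higher and 1.28% as lower. At an adjusted p under 0.05 in limma, 0 passed, against 0.0657% of all genes. At an unadjusted p under 0.05, 11 did (17.2%), against 24.4% of all genes. The groups did not overlap for 17 of the 64 (26.6%), against 36.3% of all tested genes. The median difference of the 64 was -0.15, and that of all 18253 tested genes was -0.12.

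The cytosolic complex that holds the receptor had 4 tested genes of 5, with a median of -0.33 against -0.12 for all tested genes. Probes at the level of the brighter Tiparp probe had a median of -0.24. Ptges3, the co-chaperone p23, read 5.53, 5.49 and 5.91 in the controls and 4.98, 5.11 and 5.52 in the knockouts. The groups overlapped, and the difference was -0.44 (limma, adjusted p = 0.227). Hsp90aa1, a chaperone of the HSP90 family, differed by -0.30 (adjusted p = 0.507).

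Of the bHLH-PAS relatives and ARNT partners, 6 of 11 were tested, with a median of 0.02. Epas1, which encodes HIF-2α, read 3.52, 3.63 and 3.66 in the controls and 4.33, 5.20 and 4.03 in the knockouts, a difference of 0.92 (adjusted p = 0.140). Its knockout arrays all lay above the controls. Arntl2 differed by 0.42 and Arntl, which encodes the clock factor BMAL1, by -0.42.

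All 10 coregulators of AHR were tested, with a median of -0.16. Crebbp, the histone acetyltransferase CBP, read 4.75, 5.21 and 5.20 in the controls and 5.79, 6.36 and 5.81 in the knockouts, a difference of 0.93 (adjusted p = 0.103). Med1, a Mediator subunit, differed by 0.64 (adjusted p = 0.162) and Ep300 by -0.37. Both Crebbp and Med1 were separate between the groups. Crebbp was just under 2-fold, and it passed the 2-fold rule in 8 of 18 other settings, 4 of them with another scaling.

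Of 13 other genes of the AHR battery, 7 were tested, with a median of -0.08. Ugt1a6b, a glucuronosyltransferase, differed by -0.80 and Aldh3a1, an aldehyde dehydrogenase, by 0.67, with overlapping groups in both. Nedd9, a scaffold protein, read 2.08, 2.03 and 2.05 in the controls and 1.85, 1.07 and 1.54 in the knockouts, a difference of -0.56 (adjusted p = 0.173). Cyp1a2, Cyp2s1, Gsta1, Gsta2 and Ugt1a6a were well above background on no array, as were Cyp1a1 and Cyp1b1.

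The 16 targets of NRF2, the stress factor that shares Nqo1 with AHR, had 14 tested genes and a median of -0.18. Gclm and Gclc, the subunits of the enzyme that starts glutathione synthesis, differed by 0.85 and -0.46, and Gsr, glutathione reductase, by -0.66. The lowest adjusted p of the 3 was 0.198.

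Tryptophan catabolism yields AHR ligands. Of its 12 genes, 7 were tested, with a median of -0.14. The enzymes that open the pathway, Ido1, Ido2 and Tdo2, were well above background on no array. Kmo, kynurenine monooxygenase, read 1.91, 1.14 and 1.33 in the controls and 1.09, 0.48 and 0.85 in the knockouts, a difference of -0.65 (adjusted p = 0.178) with no overlap. Ccbl2, a kynurenine aminotransferase, differed by -0.46 and Kynu, kynureninase, by 0.33.

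Hypoxia targets, which use ARNT through another partner, had 12 tested genes of 14. Their median was -0.19, against -0.12 for all tested genes. Vegfa, the vascular growth factor, read -1.60, -1.54 and -1.01 in the controls and -2.56, -2.16 and -2.22 in the knockouts, a difference of -0.92 (adjusted p = 0.102). It passed the 2-fold rule in 6 of 18 other settings, as Epas1 did. Slc2a1, a glucose transporter, differed by -0.63 and P4ha1 by -0.37.

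Among 10 lymphocyte genes linked to AHR, 4 were tested, with a median of 0.18. Il10, the inhibitory cytokine for which B1a cells are known, read -1.16, -1.07 and -0.90 in the controls and -0.29, -0.34 and -0.89 in the knockouts. The groups did not overlap, knockout 3 lying just above the highest control, and the difference was 0.54 (limma, unadjusted p = 0.0304, adjusted p = 0.170). Prdm1, which encodes BLIMP-1, differed by -0.48 and Ikzf3, which encodes AIOLOS, by 0.28. Il17a, Il2 and Il21 were well above background on no array.

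**Figure D5:**
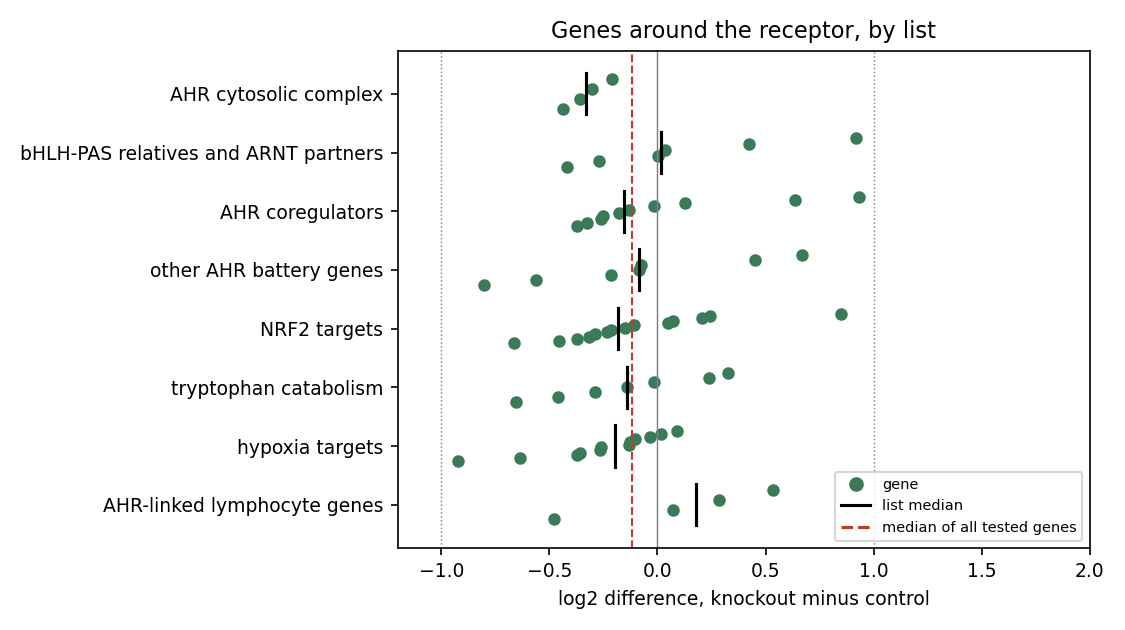
Log2 difference, knockout minus control, of each tested gene in 8 lists; black bars are list medians, the dashed line is the median of all tested genes, -0.12, and dotted lines mark 2-fold. All 64 genes lie inside the 2-fold lines, with Crebbp at 0.93 and Vegfa at -0.92 nearest to them.

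The genes whose levels across the 6 arrays were most like the brighter Ahr probe, by Pearson r over 9675 named genes, were Hsd11b1 at 0.994, Bend3 at 0.987, Btla at 0.975, Zfp28 at 0.975 and Pml at 0.974. With only 6 arrays, 49 genes reached an r of 0.9, and all points share the scaling. These values describe the arrays.

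The sort was checked by markers. All 6 B cell and all 6 B1a markers were tested and none passed either rule. At an unadjusted p under 0.05 (limma), 3 B1a markers passed, Bhlhe41 at 0.55, Spn at 0.42 and Cd9 at -0.48. Pax5 alone of the B cell markers did, at 0.57, and 24.4% of all genes did. Itgam, a B1a marker, differed by 0.79 (adjusted p = 0.219). Of the 13 macrophage markers on the array, 11 were tested and 9 of these were negative. Retnla and Lyz2 passed the 2-fold rule as lower in the knockouts, by 3.06 and 1.08. Marco and Cd5l went the other way, by 0.92 and 0.32. The summed level of that list, on the linear scale relative to the 75th percentile, was 91.8 to 146 in the controls and 83.9 to 123 in the knockouts. Of T cell markers, 5 of 8 were tested, 4 of them positive and 1 negative. Cd3d passed as higher, by 1.41, with overlapping groups (limma, adjusted p = 0.189), and Cd3g differed by -0.28. The sum of this list ran from 4.79 to 5.46 in the controls and 5.48 to 7.02 in the knockouts.

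Of mast cell markers, Mcpt4 passed as lower, and the sum of the 3 tested was 0.466 to 3.13 in the controls and 0.542 to 0.676 in the knockouts. Of mesothelial or stromal genes, 2 of 10 were tested. Col1a2, a collagen chain, was 2.72 higher and was the only marker past an adjusted p of 0.05 (limma, adjusted p = 0.0220), at -4.30, -4.22 and -4.02 in the controls, 2 of them well above background, and -1.77, -1.03 and -1.61 in the knockouts. Krt18, a keratin, was 1.81 lower by the 2-fold rule (adjusted p = 0.0769). The sum of both, 9.69 to 12.9 in the controls and 2.68 to 4.85 in the knockouts, was mostly Krt18, and Msln, Upk3b and Wt1 were well above background on no array. Camp, a granulocyte gene, passed as higher and Igj, a plasma cell gene, as lower. The granulocyte sum was 0.685 to 0.735 in the controls and 0.816 to 1.73 in the knockouts, and the plasma cell sum 68.6 to 75.6 and 46.6 to 59.5. No dendritic cell marker was tested, and the 2 tested NK cell markers did not pass. The part of these cells in the Ahr values was not tested.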

How the data were processed

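RNA of sorted PC B1a cells was labelled with Cy3 and hybridised to 1 array per sample. The deposited scanner files hold fluorescence intensity from Feature Extraction 10.7.1.1, background subtracted and detrended within each array but not scaled between arrays. The authors also deposited a table of log2 values, whose 6 columns have the same sorted values within 0.000545 and a median of 3.16 each, as after quantile normalization. It was used as an alternative, and which step gave its zero point is unknown.

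From the intensities, log2 processed signal minus each array's 75th percentile over 59305 non-control spots was computed, without outlier spots (163 to 251 on an array) and with replicate spots averaged. Testing was limited to probes that the scanner software marked well above background on the 3 arrays of either genotype and that had values on 2 or more arrays of both, 24754 of 55681. The linear model was fitted with limma 3.58.1 (lmFit, eBayes) under R 4.3.3, with Benjamini-Hochberg adjustment over all tested probes. The fit was checked on simulated arrays. The number of arrays limits the precision.

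The members, the gene lists, the alternatives and the rule for named genes were chosen with earlier results of these data known. Of each list, genes called at either rule were named, and otherwise the 3 with the largest difference among those well above background on all 6 arrays. Some list genes that this rule names are not reported here. Gene names are those of the array design. Samples with the same replicate number deviated together from their group means (r = 0.211, 0.105 and 0.202 over 20657 probes). The numbers were therefore taken to pair the arrays, and a fit with replicate block was run. All other pairs were below 0, which is partly forced, because deviations from a group mean sum to 0. Each sample is a pool of mice, and p-values measure the spread between such samples.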

Additional observations from a re-analysis of the deposited data

How the results depend on the processing

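The difference of each tested member probe was recomputed under 18 alternatives. Changing only the probe filter, the outlier spots, the test or its replicate block left every such difference as in the main setting. Only the other alternatives could turn a direction. Both Ahr probes, both Tiparp probes and the brighter Arnt probe kept their direction in all 18, the brighter Arnt probe within -0.56 to -0.23, the brighter Tiparp probe within -0.68 to -0.24 and the dimmer Tiparp probe within -0.52 to -0.09. The dimmer Arnt probe, at 0.03, turned to -0.026 under quantile normalization, -0.0061 under normexp with quantile normalization, -0.023 in the deposited values and -0.10 with array weights, and ran from -0.030 to 0.15 when 1 array was left out. None of these was past a threshold.

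The count of member probes at the 2-fold rule was 1. It was 0 under normexp with quantile normalization and 3 with no filter on dim probes, where 34.1% of all 55681 probes passed, and it was 1 in every setting that left out an array. The count at an adjusted p under 0.05 was 0. It was 1 with trend and robust estimation, 1 with array weights and 3 under normexp with 75th percentile scaling, and it ranged from 0 to 1 with 1 array left out, the 1 being the dimmer Ahr probe without knockout replicate 3. Under normexp with 75th percentile scaling, 9330 of 24754 probes (37.7%) passed, against 20 in the main setting. The 2 members added there were the brighter Arnt and Tiparp probes, at -0.56 (adjusted p = 0.0375) and -0.68 (adjusted p = 0.0200).

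Of pathway genes, 0 passed the 2-fold rule. The count was 3 under quantile normalization and in the deposited values (Crebbp, Epas1 and Vegfa), 3 when scaling used probes well above background on all 6 arrays (Crebbp, Epas1 and Gclm), 2 under normexp with quantile normalization, 2 with array weights and 13 with no filter on dim probes, and it ranged from 1 to 4 with 1 array left out. The share of all tested probes past this rule was 34.1% with no filter and 0.776% to 6.38% in the other alternatives. At an adjusted p, 0 passed, and the count was 20 under normexp with 75th percentile scaling, 1 with trend and robust estimation and 1 with array weights. Over all tested probes, the adjusted count was 980 with trend and robust estimation, 688 with array weights, 136 without knockout replicate 3 and 1 with the methods' t-test.

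With the replicate block, the dimmer Ahr probe kept its 1.75 with an adjusted p of 0.119, 1 probe of all passed an adjusted p of 0.05, and no call of a member or pathway gene at the 2-fold rule or at an adjusted p changed. At an unadjusted p under 0.05, the block moved members from 1 to 3 and pathway genes from 11 to 13. Scaling on probes well above background on all 6 arrays moved the median of all tested probes from -0.09 to 0.10, and the dimmer Ahr probe to 1.94 and the brighter one to 0.41. Precision is limited where signal nears background, as for the dimmer Ahr probe, and no difference was measurable for Ahrr, Cyp1a1, Cyp1b1 and Nqo1.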
